A study of Mus musculus with 12 samples.

Results

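The nuclear genes of oxidative phosphorylation were taken from an RNA-Seq count table of mouse colon as the protein-coding genes whose symbols begin with Ndufa, Ndufb, Ndufc, Ndufs, Ndufv, Cox4 to Cox8, Uqcr or Atp5, together with Sdha, Sdhb, Sdhc and Sdhd. The rule uses names and no measured value, and it found 94 of the 54532 gene rows in the table, under 93 names because Atp5o appears under a pair of gene identifiers. By complex, 36 encode subunits of complex I, 8 encode complex I assembly factors of the Ndufaf series, 4 encode complex II, 8 complex III, 20 complex IV and 18 ATP synthase. edgeR's filterByExpr, which drops genes with few counts, kept 90 of the 94 genes and 16904 genes in all. The 4 that did not pass were Cox6a2, with 0 to 9 counts per library, and Cox7b2, Cox8c and the second Atp5o identifier, with no count in any library.

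The samples were colonic tissue of male C57BL/6J mice, labelled as 12 samples in 4 groups of 3. The labels give an age of 5 weeks, which the study's methods state for the mice as procured, before acclimation and dosing. Control mice drank no dextran sodium sulfate (DSS), which damages the lining of the colon when taken in drinking water. The model group received DSS alone, the Rhy group DSS and rhynchophylline (Rhy), a plant alkaloid, and the DXM group DSS and dexamethasone (DXM), a glucocorticoid. No engineered allele is named for any mouse, and both drug groups also received DSS, so no group shows a drug without it. DSS was given at 3% in the drinking water, DXM at 4 mg/kg, and Rhy at 2, 4 or 8 mg/kg for 7 days. Which of these doses the sequenced Rhy mice received is not given in the sources used here.

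Oxidative phosphorylation is the last stage of aerobic respiration. Complexes I to IV of the inner mitochondrial membrane pass electrons from NADH and succinate to oxygen. Complexes I, III and IV, but not complex II, pump protons, and ATP synthase uses the return of the protons to make ATP. Most of its subunits are encoded in the nucleus and the remainder in mitochondrial DNA, and complex II is built from nuclear gene products alone. In the colon, epithelial cells burn butyrate made by bacteria and rely on this pathway, while smooth muscle and immune cells also carry it. In bulk tissue, fewer cells of a type and less RNA per cell cannot be told apart.

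Total counts were 14346478 to 17749716 per library. The libraries model 1 and model 2 were far more alike than other pairs, with a common dispersion (edgeR's measure of variance beyond counting noise) of 0.00201 against 0.0604 to 0.351 in the other 65 pairs. Counts of members without either library, or with their counts summed, are given below. Hoxb13, a marker of the posterior colon, was under 5 CPM (read counts scaled to library size, with edgeR's TMM factors) in control 3, model 3 and Rhy 1 and 72.0 to 316 CPM in the other 9 libraries. The summed level of 8 B cell markers was 11.6 CPM in control 3, 1.63 CPM in Rhy 1 and 116 to 211 CPM elsewhere. None of 10 colonocyte markers was at 0 throughout, and they summed to 14357 to 38787 CPM. Whether model 1 and model 2 are libraries of separate mice cannot be told from the sources used here, so n = 3 for the model group counts libraries, and the p-values below measure the spread between 3 libraries a group. All tests are edgeR's quasi-likelihood test, two-sided, with Benjamini-Hochberg adjustment over the 16904 genes. For DESeq2, limma and the fits without single libraries, members at an unadjusted p under 0.05 are counted without the share of all genes.

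The members were abundant transcripts. FPKM, the deposited unit that also divides by gene length, allows levels to be compared between genes. The median over the 90 tested members of the mean FPKM was 120 against 3.40 over all tested genes, 54 members were over 100 FPKM and 11 were under 10. In 85 of the 90 every library held more than 100 counts, and the lowest count of any member was 3, for Cox8b. FPKM depends on the length of the gene model, which was 5628 bases for Ndufb2. CPM does not divide by length, and Ndufb2 was also low there, with 12.5 to 36.4 CPM over the libraries. Ndufb5, with a model of 4995 bases, had 104 to 141 CPM.

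Within each complex the levels spanned a wide range. In complex I the highest mean FPKM was 386 for Ndufa1, a small membrane subunit, and the lowest was 3.62 for Ndufb2, another accessory subunit of the membrane arm. Among the catalytic core genes, Ndufv1, which binds NADH, had a mean of 71.9 FPKM and Ndufs1, the large iron-sulfur subunit, 14.3 FPKM over a model of 8086 bases. Among the assembly factors, Ndufaf8 was highest with 46.1 FPKM and Ndufaf7 lowest with 5.96 FPKM.

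In complex II, which oxidises succinate, Sdhd had the highest mean with 199 FPKM and Sdhc, the other membrane anchor, the lowest with 56.5 FPKM. In complex III the small subunit Uqcr10 was highest with 569 FPKM and the core protein Uqcrc2 lowest with 93.9 FPKM. Uqcrc1 and the Rieske iron-sulfur protein Uqcrfs1 had means of 107 and 283 FPKM. In complex IV, Cox8a led all members with 1508 FPKM, followed by Cox6a1 with 1358 FPKM and the common form of subunit 4, Cox4i1, with 724 FPKM, while Cox7b2 and Cox8c were at 0. In ATP synthase the catalytic head subunits Atp5a1 (alpha) and Atp5b (beta) were highest, with 437 and 341 FPKM, and Atp5s was the lowest gene with counts, with 4.89 FPKM.

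The libraries differed by less than the genes did. The ratio of the highest to the lowest library, in CPM, had a median of 2.06 over the 90 members, was under 2 in 40 and under 3 in 80, and was over 4 in 3. Each gene's log2 CPM was set against its mean over the 12 libraries and averaged over the 90 members. This mean deviation was 0.14, -0.10 and -0.33 in the control libraries, -0.20, -0.18 and 0.14 in the model libraries, 0.35, 0.17 and 0.01 in the Rhy libraries and -0.00, 0.06 and -0.05 in the DXM libraries. The standard deviation within groups was 0.174, and the control libraries spanned the widest range of the 4 groups. Rhy 1 was the highest library for 37 of the 90 members and control 1 for 26, and control 3 was the lowest for 48.

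**Figure D1:**
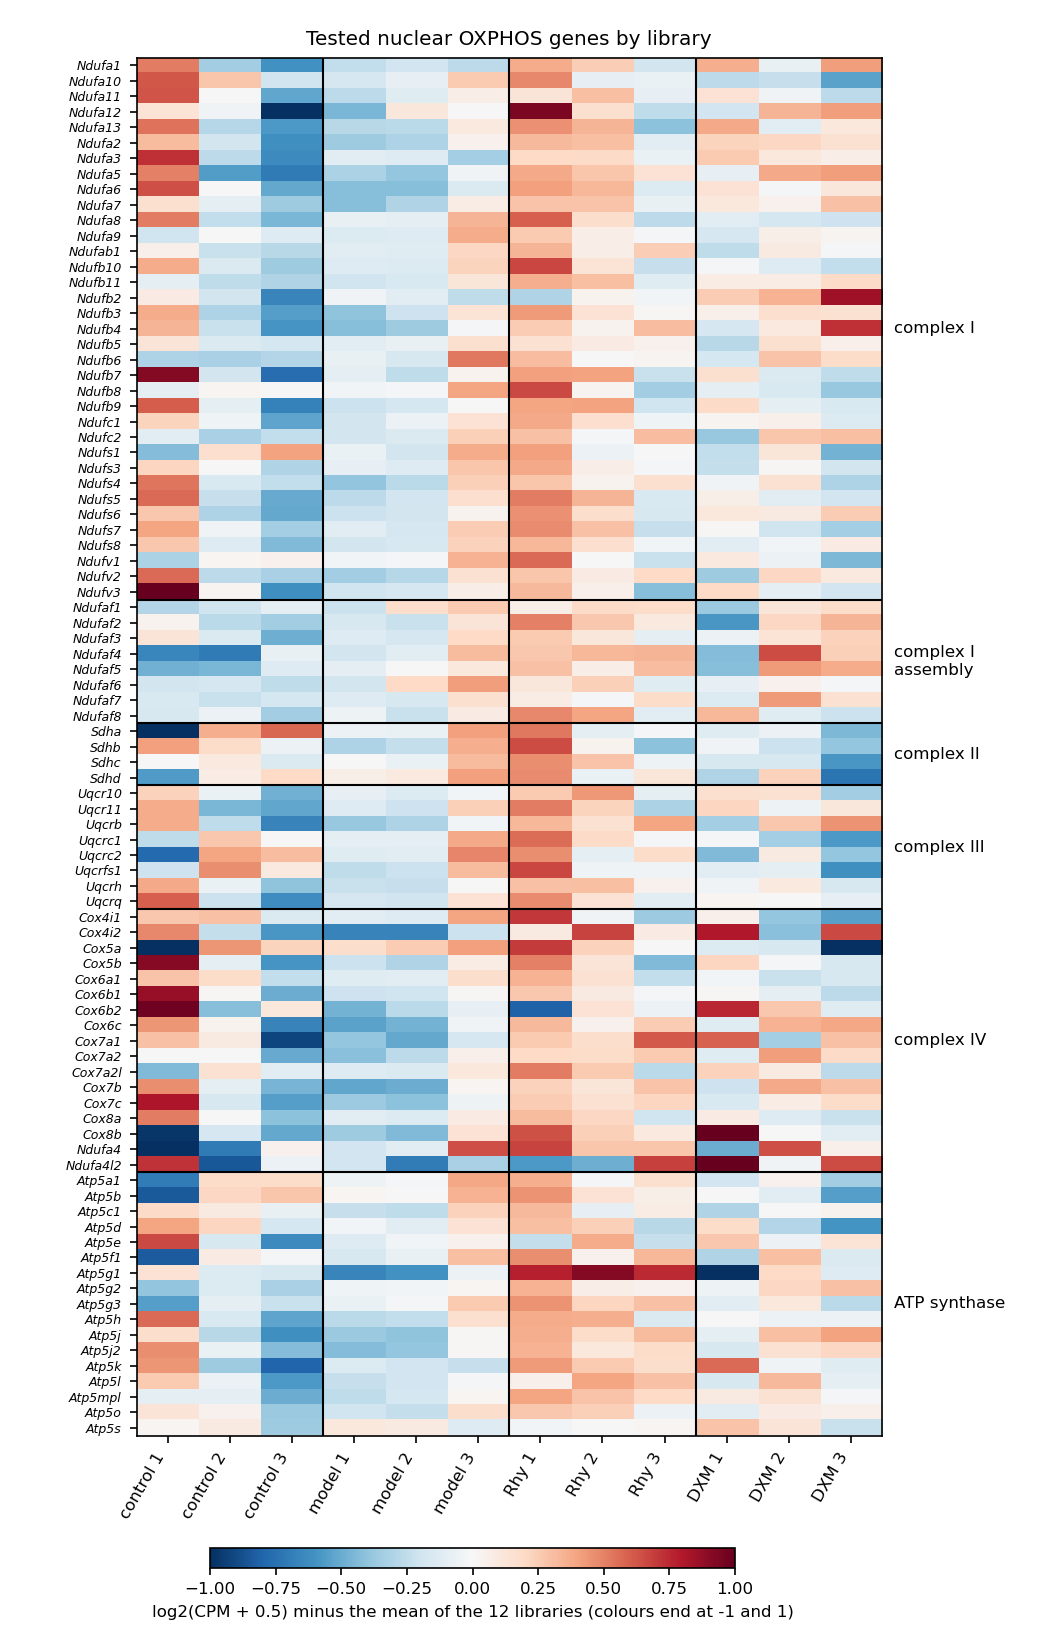
Each row is a tested member, sorted by complex, with 1 member not shown, each column is 1 library, and the colour is log2(CPM + 0.5) minus the gene's mean over the 12 libraries, ending at -1 and 1. Control 3 is blue for most genes, Rhy 1 is red for most genes, and control 1 is dark red for some genes and dark blue for others.

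The comparison of the model with the control group asks what DSS alone did. Oxidative phosphorylation genes lay on both sides of zero. Of the 90 tested members, 40 had a log2 fold change above 0 and 50 below, with a median of -0.03 (fold 0.981), beside a median of 0.01 over all 16904 genes, of which 50.7% were above 0. With RLE size factors 35 members were above 0, and with upper-quartile factors 44. In edgeR's test 0 of the 90 members and 0 of all genes (0%) had an adjusted p under 0.05, and the smallest adjusted p among the members was 0.527. At an unadjusted p under 0.05 there were 0 members in either direction, where 5.11% of all genes were higher and 4.51% lower. DESeq2 called 0 of 91 members at an adjusted p under 0.05 and had 1 at an unadjusted p under 0.05, and limma on log2(FPKM + 1) had 0 at both thresholds. All 3 model libraries lay above all 3 control libraries for 4 members, against 10.4% of all genes, and below them for 0, against 6.61%.

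This balance depended on which control library was present. Without control 1 the median was 0.15, without control 3 it was -0.21, and without model 3 it was -0.20. The number of members with an unadjusted p under 0.05 was 8 without control 3 and 1 without control 2, model 1 or model 2. It was 0 without control 1 or model 3, and the share of all genes in these fits is not given. By complex, 13 of the 17 tested complex IV genes were below 0 (median -0.26) and the 8 complex I assembly factors were all above 0 (median 0.22). The extremes were both in complex IV, with -0.66 for Cox6b2, a form of subunit 6b best known from testis, and 0.67 for Ndufa4, a small subunit once assigned to complex I. Cox6b2 was low, with 9.4, 3.3 and 4.9 CPM in the control and 3.1, 3.7 and 4.3 CPM in the model libraries, and these overlapped.

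The comparison of the Rhy with the model group asks what changed when DSS was given together with Rhy. Of the 90 members, 85 had a log2 fold change above 0, with a median of 0.25 (fold 1.19), while the median over all genes was -0.01 and 48.3% of them were above 0. The difference between the median of the members and that of all genes was 0.26 with TMM, RLE and upper-quartile factors. A size factor moves all genes of a library alike, so this difference is nearly fixed and does not test the scaling. The number of members above 0 was 85, 89 and 85 in the same order. All 17 genes of complex IV and all 8 of complex III were above 0, and the medians were 0.23 in complex I, 0.18 in its assembly factors, 0.10 in complex II, 0.26 in complex III, 0.26 in complex IV and 0.26 in ATP synthase. Single genes did not pass the test. In edgeR 0 of the 90 members and 0 of all genes (0%) had an adjusted p under 0.05, and the smallest adjusted p of a member was 1.0. At an unadjusted p under 0.05, 4 members (1.74% of all genes in this direction) were higher and 0 (1.98% of all genes) were lower in the Rhy group. DESeq2 had 0 of 91 members at an adjusted p under 0.05 and 8 at an unadjusted one. With limma on log2(FPKM + 1) there were 0 and 5, and the share of all genes at the unadjusted threshold is not given.

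All 3 Rhy libraries lay above all 3 model libraries for 20 of the 90 members, against 5.51% of all genes, and below them for 0, against 6.02%. Of these 20, 7 were ATP synthase genes, 6 complex IV, 5 complex I and 2 complex III. The median of the members stayed above 0 in all 18 alternative fits, from 0.15 to 0.39. It was lowest without Rhy 1, at 0.15, and highest without model 3, at 0.39. The number of members with an unadjusted p under 0.05 was 10 without model 3, 2 without Rhy 2 and 1 without Rhy 1. It was also 1 without model 1, without model 2 or with the counts of model 1 and model 2 summed. How many of all genes passed in these fits is not given. In the mean deviation over all members, Rhy 3 at 0.01 lay below model 3 at 0.14, so the groups overlapped.

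**Figure D2:**
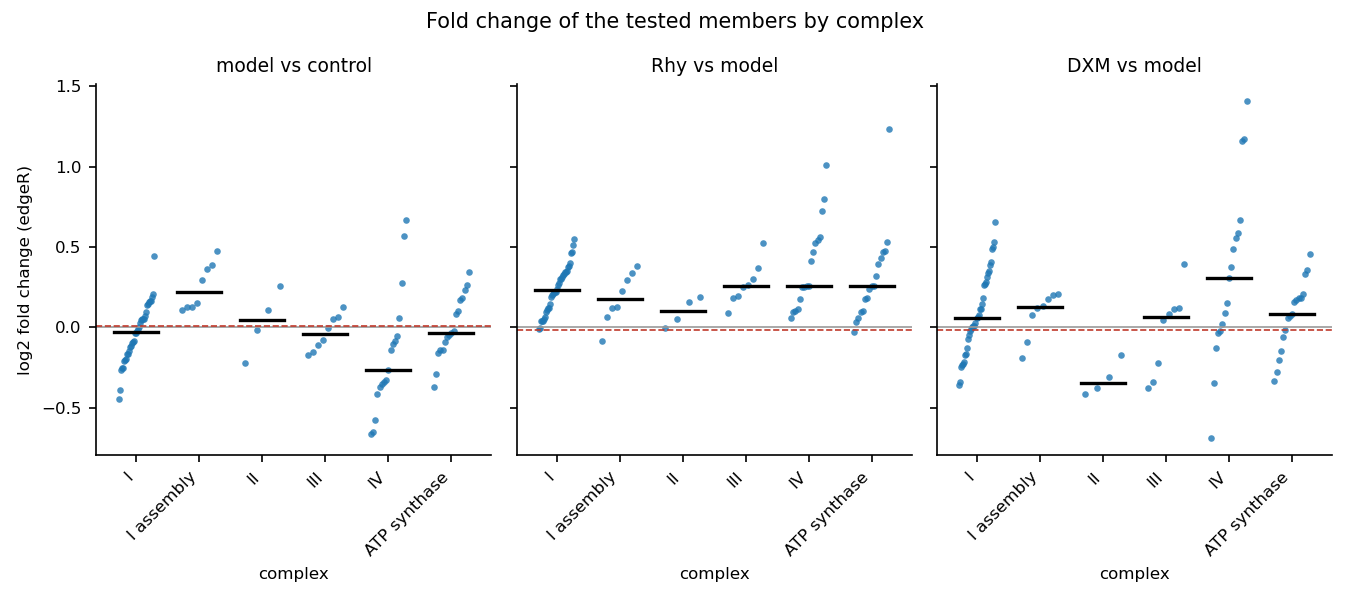
Points are the log2 fold changes of the 90 tested members by complex in 3 comparisons, black bars are the medians of each complex, the grey line is 0 and the dashed red line is the median of all 16904 genes. In the Rhy panel 85 points lie above 0 with Atp5g1 at the top at 1.23, and in the DXM panel all 4 complex II points lie below 0.

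Atp5g1 had the largest log2 fold change between Rhy and model. It encodes the c subunit of ATP synthase, the proteolipid that forms the rotating ring of the membrane part, and lies at chr11:96068852-96075670 on the minus strand (mm10). Its level was 255, 210 and 207 CPM in the control libraries, 146, 151 and 221 CPM with DSS alone, 397, 436 and 387 CPM in the Rhy libraries and 112, 266 and 211 CPM in the DXM libraries. The 3 Rhy libraries were above all 9 others, the lowest of them at 387 CPM and the highest of the others at 266 CPM. The log2 fold change from model to Rhy was 1.23 ± 0.29 (SE, n = 3 and 3), a fold of 2.35, with an unadjusted p of 0.0011 and an adjusted p of 1.0 in edgeR. An exact two-sided permutation test on log2 CPM gave p = 0.1, the smallest that 3 against 3 allows. Over the 18 alternatives the log2 fold change was 1.13 to 1.48, the unadjusted p was at most 0.00734, and the smallest adjusted p was 0.1 (DESeq2).

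The c subunit is also encoded by Atp5g2 and Atp5g3, whose mature proteins are the same and whose import sequences differ. Atp5g2 had 166, 199.5 and 174 CPM in the control libraries, 213, 214 and 222 in the model libraries, 279, 229 and 226 in the Rhy libraries and 211, 252 and 269 in the DXM libraries. Atp5g3 had 453, 618 and 568 CPM in the control libraries, 634, 654 and 793 in the model libraries, 905, 769 and 812 in the Rhy libraries and 616, 715 and 550 in the DXM libraries. For both, the control libraries were the lowest group apart from an overlap with DXM in Atp5g3. From model to Rhy their log2 fold changes were 0.18 ± 0.17 for Atp5g2 and 0.26 ± 0.20 for Atp5g3 (SE, n = 3 and 3), with unadjusted p-values of 0.324 and 0.233 and adjusted p-values of 1.0 in edgeR.

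FPKM divides by gene models of 4912 bases for Atp5g1, 1675 for Atp5g2 and 2181 for Atp5g3. Per length, Atp5g1 made the smallest share of the summed FPKM of these genes. It made 14.5%, 9.61% and 10.3% of their summed FPKM in the control libraries, 6.65%, 6.72% and 8.32% in the model libraries, 12.2%, 15.4% and 13.5% in the Rhy libraries and 5.31%, 10.2% and 9.44% in the DXM libraries. This ratio within a library does not depend on the scaling between libraries. Every Rhy library exceeded every model library, and the Rhy and control ranges overlapped. That Atp5g1 ranked last rests on the gene model lengths. In CPM it was above Atp5g2 in every control and Rhy library and below it in every model library. The summed level of the 3 genes was 875 to 1027 CPM in control, 993 to 1237 in model, 1425 to 1581 in Rhy and 939 to 1233 CPM in DXM libraries, and the Rhy libraries did not overlap the others.

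**Figure D3:**
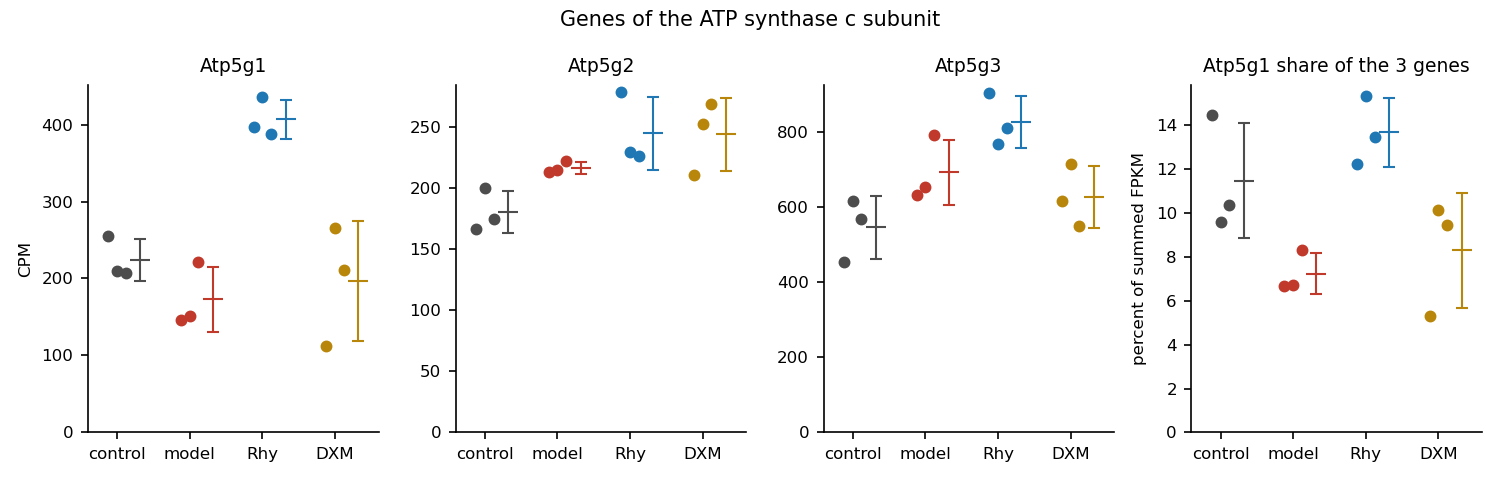
Points are single libraries (3 a group), horizontal marks and bars are the group mean and SD, the first 3 panels give CPM of Atp5g1, Atp5g2 and Atp5g3, and the fourth gives Atp5g1 as a percent of their summed FPKM. Atp5g1 is at 387 to 436 CPM in the Rhy libraries and at 112 to 266 CPM in the other 9.

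The upstream sequences are shown for the members with an unadjusted p under 0.05 in a comparison of a drug with the model group that matched a RefSeq window, which were Atp5g1, Cox7a1, Atp5j and Ndufb2, and for Atp5g2 and Atp5g3 as the other genes of the c subunit. Atp5mpl and Cox4i2 did not match. The sequences are the 250 bases before the RefSeq transcription start on GRCm38.p6, the build of mm10, 5′ to 3′ on the gene's strand, and capitals mark letters that equal a searched motif of NRF1 (TGCGCATGC), the ETS family to which GABPA belongs (CCGGAAG), YY1 (AAGATGGCG) or the estrogen-related receptors (AAGGTCA), on either strand.
Atp5g1, chr11:96075632-96075881, minus strand: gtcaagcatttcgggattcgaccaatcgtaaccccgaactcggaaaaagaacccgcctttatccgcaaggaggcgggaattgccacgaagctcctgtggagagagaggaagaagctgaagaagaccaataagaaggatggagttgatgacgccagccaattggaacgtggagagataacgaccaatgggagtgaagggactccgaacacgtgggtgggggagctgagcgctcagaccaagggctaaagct
Atp5g2, chr15:102671048-102671297, minus strand: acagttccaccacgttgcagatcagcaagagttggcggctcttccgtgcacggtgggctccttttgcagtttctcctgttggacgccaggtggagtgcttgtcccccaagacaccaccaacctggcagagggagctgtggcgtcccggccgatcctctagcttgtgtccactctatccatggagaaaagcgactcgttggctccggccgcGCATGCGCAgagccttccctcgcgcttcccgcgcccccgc
Atp5g3, chr2:73911327-73911576, minus strand: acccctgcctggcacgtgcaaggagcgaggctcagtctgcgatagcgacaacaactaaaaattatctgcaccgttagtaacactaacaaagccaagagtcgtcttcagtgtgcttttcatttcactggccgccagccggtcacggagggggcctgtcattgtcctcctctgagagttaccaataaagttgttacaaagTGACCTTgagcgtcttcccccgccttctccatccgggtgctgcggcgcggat
Cox7a1, chr7:30183921-30184170, plus strand: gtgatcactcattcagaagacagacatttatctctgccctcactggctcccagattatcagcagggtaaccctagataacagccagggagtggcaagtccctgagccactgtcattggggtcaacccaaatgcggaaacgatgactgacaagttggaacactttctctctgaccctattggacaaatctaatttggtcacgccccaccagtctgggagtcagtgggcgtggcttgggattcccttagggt
Atp5j, chr16:84834977-84835226, minus strand: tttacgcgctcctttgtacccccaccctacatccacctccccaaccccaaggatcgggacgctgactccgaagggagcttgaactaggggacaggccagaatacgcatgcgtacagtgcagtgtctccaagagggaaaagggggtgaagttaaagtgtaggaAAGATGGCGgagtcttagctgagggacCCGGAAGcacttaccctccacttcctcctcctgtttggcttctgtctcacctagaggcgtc
Ndufb2, chr6:39592315-39592564, plus strand: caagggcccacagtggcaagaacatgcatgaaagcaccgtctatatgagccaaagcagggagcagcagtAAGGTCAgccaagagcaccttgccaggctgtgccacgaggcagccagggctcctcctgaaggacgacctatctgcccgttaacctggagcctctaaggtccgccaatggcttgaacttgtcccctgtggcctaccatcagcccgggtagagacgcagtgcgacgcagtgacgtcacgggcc

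The 3 c subunit genes shared none of these matches. Atp5g2 held the NRF1 letters, Atp5g3 those of the estrogen-related receptors, and Atp5g1 neither. The shorter letters of the hypoxia-inducible factors (ACGTG) were found 3 times upstream of Atp5g1, with an overlapping match on both strands at the same place, and were also present upstream of Atp5g2 and Atp5g3. The Cox7a1 window held none of the 4 marked motifs, the Ndufb2 window held the letters of the estrogen-related receptors, and the Atp5j window held the YY1 and the ETS letters, and a second RefSeq start of Atp5j held none of the 5 motifs.

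Of the 93 member names, 74 matched a RefSeq promoter window of 300 bases (250 before and 50 after the start), with 79 windows in all. The NRF1 letters were present in 8.11% of the 74 members against 1.72% of 27025 genes with a window, those of YY1 in 10.8% against 1.64%, those of ETS factors in 24.3% against 9.93% and those of the estrogen-related receptors in 10.8% against 5.38%. Among 17492 protein-coding genes the shares were 2.23%, 2.14%, 12.9% and 4.73%. The letters of the hypoxia-inducible factors were in 23% of the members and in 21.8% of all genes. A match describes the letters in the window and is not evidence of binding, and no letter match says nothing of the factor.

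A further 3 members had an unadjusted p under 0.05 between Rhy and model. Atp5mpl, a small membrane subunit of ATP synthase, had 205, 217 and 247 CPM with DSS alone and 321, 298 and 282 in the Rhy libraries, without overlap, and its control libraries were at 228, 229 and 174 CPM. From model to Rhy its log2 fold change was 0.43 ± 0.17 (SE, n = 3 and 3; unadjusted p = 0.0307, adjusted p = 1.0 in edgeR). Atp5j, a subunit of the stalk that joins the head of ATP synthase to the membrane, had 246, 241 and 322 CPM with DSS alone, 410, 363 and 397 in the Rhy libraries and 359, 264 and 208 in the control libraries. The Rhy libraries were above the model libraries and above control 1 by a small margin. The log2 fold change was 0.53 ± 0.23 (unadjusted p = 0.0429, adjusted p = 1.0 in edgeR). The exact permutation test gave 0.1 for both, and over the 18 alternatives the unadjusted p stayed under 0.05 in 12 for Atp5mpl and in 10 for Atp5j. Cox7a1 is described with the other second forms.

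The comparison of the DXM with the model group asks the same of dexamethasone. Of the 90 members, 57 were above 0 and the median log2 fold change was 0.08 (fold 1.06), beside a median of -0.01 over all genes and 48.5% of them above 0. In edgeR 0 members and 0 of all genes (0%) had an adjusted p under 0.05, with a smallest adjusted p of 0.622 among the members. At an unadjusted p under 0.05, 2 members were higher, where 4.89% of all genes were, and 0 were lower, where 2.8% were. DESeq2 had 0 of 91 members at an adjusted p under 0.05 and 4 at an unadjusted one, and limma on log2(FPKM + 1) had 0 and 3. Without overlap of the libraries, 8 members were higher in DXM (10.4% of all genes) and 6 were lower (12.2%), and neither count exceeded the share in all genes. The number with an unadjusted p under 0.05 was 7 without model 3, 6 without DXM 1 and 5 without DXM 2. It was 1 without model 1, model 2 or DXM 3, and the share of all genes in these fits is not given.

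The medians of complex IV and complex II had opposite signs with DXM. Complex IV had a median of 0.31 with 12 of 17 genes above 0, and complex II a median of -0.34 with all 4 genes below 0. The complex IV median counts second forms at a few CPM, such as Cox4i2, like the common subunits. In summed CPM complex IV had 5249 to 6790 in model and 5635 to 6063 in DXM libraries, which overlapped. Complex II had 926 to 1277 CPM in model and 684 to 956 in DXM libraries, also with overlap. Sdhc had 182, 175 and 227 CPM with DSS alone and 164, 164 and 122 in the DXM libraries, the only complex II gene without overlap. Its log2 fold change was -0.38 ± 0.20 (SE, n = 3 and 3; unadjusted p = 0.0829, adjusted p = 0.666 in edgeR). Sdha, the flavoprotein that oxidises succinate, had 268.8, 268.5 and 372.1 CPM with DSS alone and 258.5, 269.5 and 205.6 in the DXM libraries. Sdhb, the iron-sulfur subunit, had 224, 235 and 356 CPM against 272, 240 and 212, and Sdhd 251, 258 and 321 against 196, 283 and 145. For these 3 genes the groups overlapped, for Sdha by less than 1 CPM.

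The lowest level of complex II in the series was in DXM 3. The 4 genes summed to 684 CPM there and to 854 to 1428 CPM in the other 11 libraries, with the highest sum in Rhy 1. The same library was also the lowest for Cox5a, a subunit of complex IV, with 115 CPM, although control 1 was close with 121 CPM and the other 10 libraries had 223 to 406 CPM. Cox5a had the lowest log2 fold change of any member between DXM and model, -0.69 ± 0.37 (SE, n = 3 and 3; unadjusted p = 0.0857, adjusted p = 0.669 in edgeR).

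Ndufb2 had the smallest unadjusted p with DXM. It had 21.2, 17.5 and 12.5 CPM in the control libraries, 19.5, 18.4 and 16.7 in the model libraries, 16.1, 20.5 and 19.6 in the Rhy libraries and 23.9, 25.6 and 36.4 in the DXM libraries. The 3 DXM libraries were above the other 9. The log2 fold change was 0.65 ± 0.23 from model (unadjusted p = 0.0161, adjusted p = 0.622) and 0.75 ± 0.23 from control (unadjusted p = 0.0077, adjusted p = 0.146; edgeR, n = 3 and 3, SE). These comparisons share the DXM libraries. Over the alternatives the value against model was 0.44 to 0.77, and the unadjusted p stayed under 0.05 in 17 of 18.

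Against the control group, the Rhy group had 80 of the 90 members above 0 with a median of 0.24 (fold 1.18), where the median of all genes was -0.03 and 47.7% were above 0. In edgeR 0 members and 0 genes (0%) had an adjusted p under 0.05, and the smallest adjusted p of a member was 0.364. At an unadjusted p under 0.05, 9 members were higher (6.46% of all genes) and 0 lower (5.09%). DESeq2 had 0 of 91 and 8, and limma on log2(FPKM + 1) 0 and 9, at the adjusted and the unadjusted threshold. All 3 Rhy libraries were above all 3 control libraries for 17 members (7.5% of all genes) and below them for 0 (4.79%). The number with an unadjusted p under 0.05 was 27 without control 1, where the median was 0.44, and 5 without control 3, where it was 0.12. It was 4 without Rhy 1, with a median of 0.13, and 6 without control 2. The share of all genes in these fits is not given, so the 27 cannot be set against it.

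The 9 members comprised the 3 c subunit genes, Atp5mpl, Ndufb11, Ndufa4 and the assembly factors Ndufaf4, Ndufaf5 and Ndufaf8. The smallest unadjusted p was that of Atp5g1, with a log2 fold change of 0.86 ± 0.29 (SE, n = 3 and 3; unadjusted p = 0.0112, adjusted p = 0.364 in edgeR). Atp5g3 had 0.60 ± 0.20 and Atp5mpl 0.51 ± 0.18, with unadjusted p-values of 0.0125 and 0.0126 and the same adjusted p in edgeR. Ndufa4 had 74.1, 96.7 and 163 CPM in the control libraries, 138, 146 and 247 in the model libraries, 252, 191 and 192 in the Rhy libraries and 112, 247 and 163 in the DXM libraries. The control libraries differed by more than 2-fold among themselves, and the lowest Rhy library was still above the highest of them. Its log2 fold change from control to Rhy was 0.93 ± 0.36 (unadjusted p = 0.0236, adjusted p = 0.373 in edgeR).

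The DXM group had 51 of the 90 members above control, with a median of 0.07 beside 0.06 over all genes, of which 53.8% were above 0. With upper-quartile factors both medians were 0.15. In edgeR 0 members and 0 genes (0%) had an adjusted p under 0.05, with a smallest value of 0.146. At an unadjusted p under 0.05, 5 members were higher (8.68% of all genes) and 1 was lower (10.2%). DESeq2 had 0 of 91 and 5, and limma on log2(FPKM + 1) 0 and 4. At the adjusted threshold DESeq2 called 1058 of 29929 genes in all. Without overlap 8 members were higher (9.77% of all genes) and 3 lower (8.89%). The number with an unadjusted p under 0.05 was 15 without control 1, where the median was 0.29, and 12 without DXM 1. It was 3 without control 2 or DXM 2, 2 without DXM 3, and 6 without control 3, where the median was -0.059. The share of all genes in these fits is not given.

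The member that was lower was Ndufa10, an accessory subunit of complex I, with 269, 212 and 152 CPM in the control libraries and 146, 149 and 120 CPM in the DXM libraries. The model libraries were at 156, 165 and 210 CPM and the Rhy libraries at 244, 166 and 167 CPM, so the 3 DXM libraries were the lowest of the 12. From control to DXM its log2 fold change was -0.61 ± 0.24 (SE, n = 3 and 3; unadjusted p = 0.0285, adjusted p = 0.216 in edgeR). Complex II was below control for all 4 genes, with a median of -0.30, and Atp5g2 had a log2 fold change of 0.44 ± 0.17 (unadjusted p = 0.0256, adjusted p = 0.208 in edgeR).

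The 8 Ndufaf genes encode proteins that help to build complex I and leave it when it is complete. All 8 were above control in each of the DSS groups, with medians of 0.22 in model, 0.41 in Rhy and 0.25 in DXM. These comparisons share the control libraries. All 3 libraries lay above all 3 control libraries for 1 of the 8 in model, 6 in Rhy and 2 in DXM. Over all genes the shares were 10.4%, 7.5% and 9.77%. The sum of the 8 genes was 158, 150 and 152 CPM in the control libraries, 166, 168 and 208 in the model libraries, 226, 214 and 196 in the Rhy libraries and 164, 218 and 203 in the DXM libraries. The 3 control libraries were below the 9 others, with the closest pair, control 1 and DXM 1, at 158 and 164 CPM. The subunits of complex I did not follow this order, since their sum was 3950 to 6630 CPM in the control libraries, and control 1 was the second highest of the 12.

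Against control, Ndufaf4 had the largest fold of the 8 Ndufaf genes with DSS alone, with Rhy and with DXM. Its level was 20.6, 19.7 and 31.0 CPM in the control libraries, 28.7, 30.2 and 40.6 in the model libraries, 39.5, 41.2 and 41.5 in the Rhy libraries and 24.1, 51.6 and 38.4 in the DXM libraries. The Rhy libraries were close to each other and above the control libraries, while the DXM libraries overlapped the control group. The log2 fold change from control was 0.77 ± 0.27 with Rhy (unadjusted p = 0.0154, adjusted p = 0.364) and 0.68 ± 0.27 with DXM (unadjusted p = 0.0293, adjusted p = 0.218; edgeR, n = 3 and 3, SE). Of 41 further assembly factors and electron carriers outside the rule, such as Cyc1 and Surf1, 40 were tested. Between model and control 31 of them were above 0 with a median of 0.18, between Rhy and control 31 with a median of 0.18, and between DXM and control 19 with a median of -0.02.

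**Figure D4:**
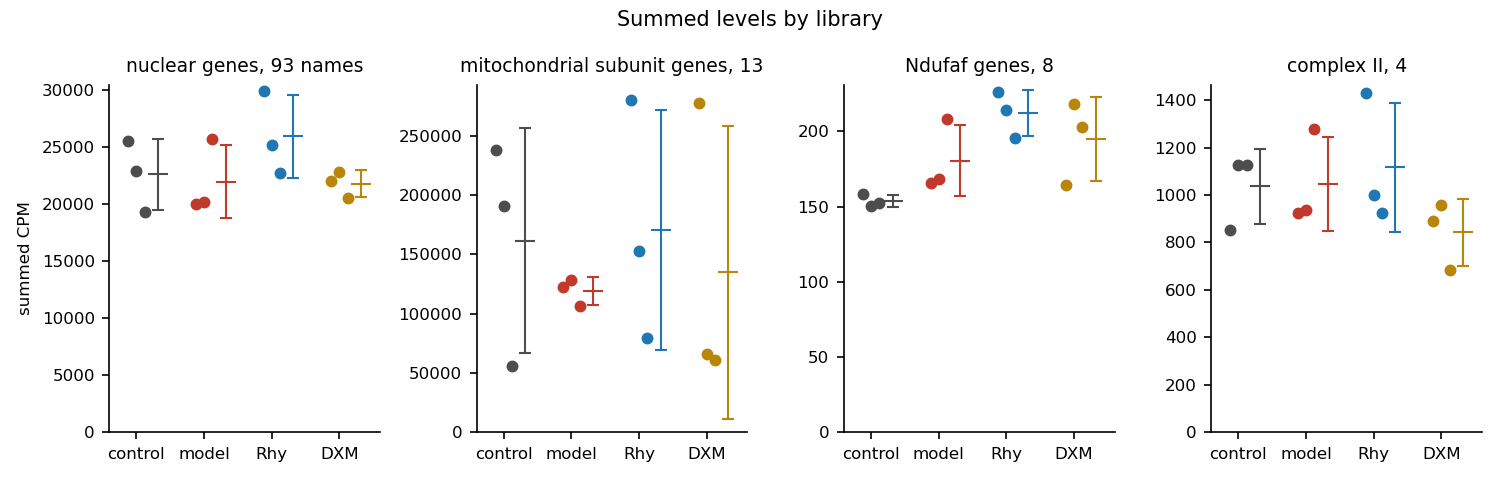
Points are summed CPM by library (3 a group), with horizontal marks and bars for the group mean and SD, for all nuclear members, the 13 mitochondrially encoded subunits, the 8 Ndufaf genes and the 4 complex II genes. The Ndufaf sums are 150 to 158 CPM in the control libraries and 164 to 226 CPM in the other 9, and the complex II sum is lowest in DXM 3 at 684 CPM.

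Several complex IV subunits exist in a second form used in particular tissues. Cox4i2 is a form of subunit 4 known from lung and smooth muscle of vessels, Cox7a1 and Cox8b are forms known from heart, skeletal muscle and brown fat, and Ndufa4l2 is known as a target of hypoxia. In the colon most were minor forms. Of the summed FPKM of both forms, Cox4i2 made 0.233% to 0.981%, Cox6b2 0.334% to 1.33%, Cox8b 0.0290% to 0.584%, Cox6a2 0 to 0.0654% and Ndufa4l2 0.384% to 4.27% over the 12 libraries. Cox7a1 stood apart with 11.2% to 26.1%.

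Cox7a1 had 46.9, 40.7 and 20.04 CPM in the control libraries, 29.1, 26.7 and 33.9 in the model libraries, 46.0, 43.3 and 58.6 in the Rhy libraries and 57.8, 30.0 and 47.0 in the DXM libraries. The Rhy libraries were above the model libraries, and the control and the DXM libraries overlapped both groups. Its log2 fold change from model to Rhy was 0.72 ± 0.31 (SE, n = 3 and 3; unadjusted p = 0.0385, adjusted p = 1.0 in edgeR), and the unadjusted p stayed under 0.05 in 12 of the 18 alternatives. Its common form Cox7a2 had 0.41 ± 0.22 (unadjusted p = 0.0804, adjusted p = 1.0 in edgeR). The share of Cox7a1 was 17.9%, 15.2% and 15.5% in the model libraries and 18.4%, 17.6% and 21.5% in the Rhy libraries, and these ranges overlapped.

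Cox4i2 was low in every library, with 1.21, 1.21 and 1.85 CPM with DSS alone and 4.25, 1.54 and 3.80 in the DXM libraries, and DXM 2 lay within the model group. Its control libraries were at 3.29, 1.81 and 1.32 CPM and its Rhy libraries at 2.40, 3.85 and 2.38 CPM. The log2 fold change from model was 1.16 ± 0.48 with DXM (unadjusted p = 0.0334, adjusted p = 0.637) and 1.01 ± 0.48 with Rhy (unadjusted p = 0.0584, adjusted p = 1.0; edgeR, n = 3 and 3, SE). For DXM against model the exact permutation test gave p = 0.2, and the unadjusted p stayed under 0.05 in 11 of the 18 alternatives. Cox8b had 0.225, 0.765 and 0.494 CPM in the control libraries and 3.36, 0.916 and 0.810 CPM in the DXM libraries, and DXM 1 alone was far above the others. From control to DXM its log2 fold change was 1.74 ± 0.66 (unadjusted p = 0.0215, adjusted p = 0.197 in edgeR), and without single libraries it was 0.79 to 2.17.

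Markers of the tissues that use these forms were measured beside them. The 10 smooth muscle markers were all above model in DXM (median log2 fold change 0.68) and 9 of 10 were in Rhy (median 0.33). Their sum was 4318 to 5653 CPM in the model, 6606 to 7483 in the Rhy and 5944 to 10550 CPM in the DXM libraries. Of 8 endothelial and pericyte markers, 7 were above model in DXM (median 0.70) and 6 in Rhy (median 0.21). They summed to 380 to 383 CPM in model, 331 to 456 in Rhy and 439 to 499 CPM in DXM libraries. The 10 striated muscle markers summed to 22.7 to 60.9 CPM over the 12 libraries, with 1 at 0 everywhere, and the 2 brown fat markers to 0.182 to 2.13 CPM with the highest value in DXM 1. The part of these cell types in the levels of Cox4i2, Cox7a1 and Cox8b was not tested.

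**Figure D5:**
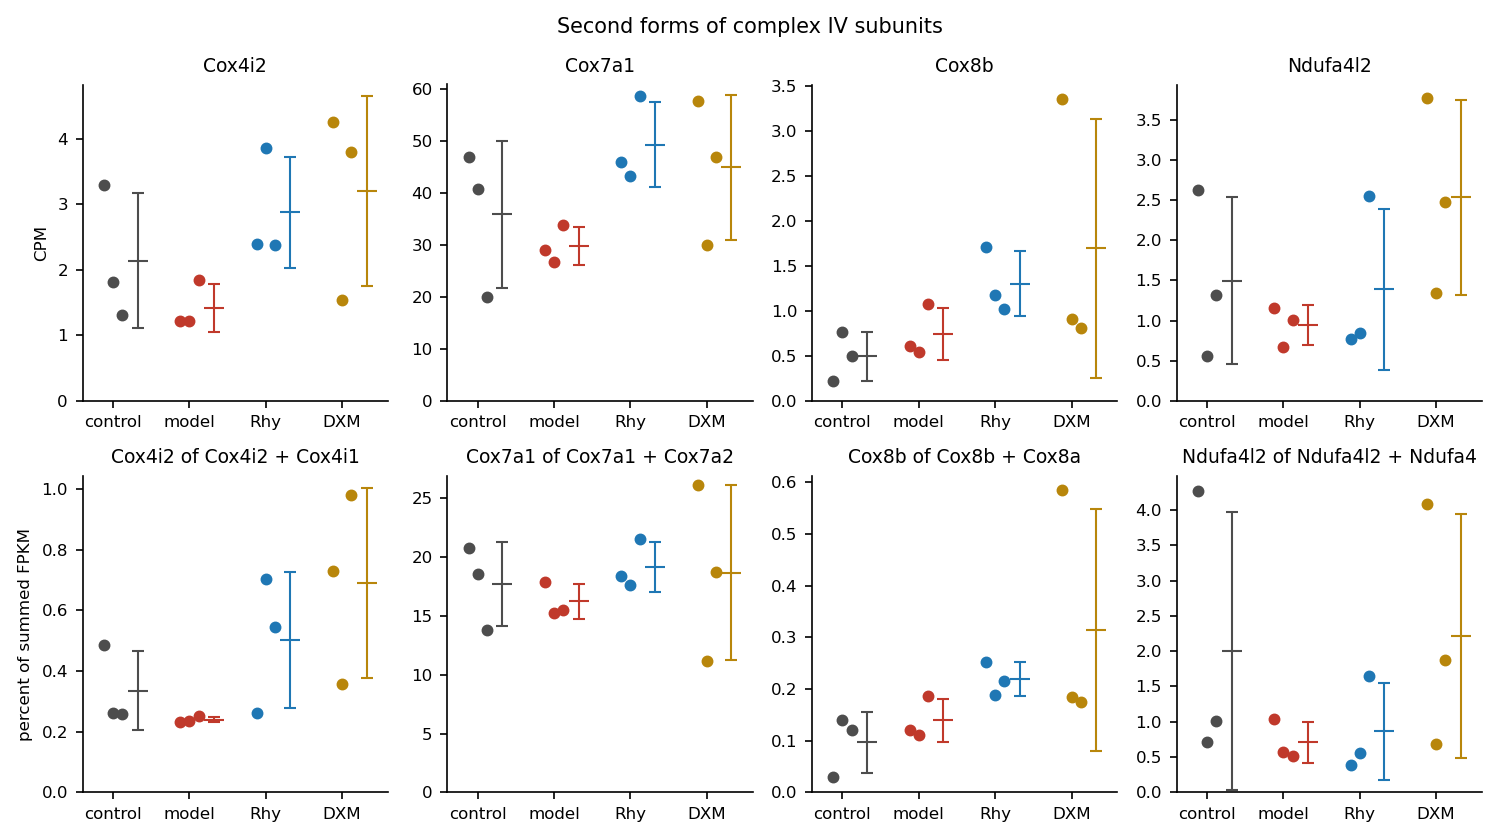
Upper panels give CPM and lower panels the percent of the summed FPKM of both forms for Cox4i2, Cox7a1, Cox8b and Ndufa4l2, with points for single libraries (3 a group) and horizontal marks and bars for the mean and SD. Cox7a1 makes 11.2% to 26.1% of its pair, and the others at most 4.27%, with DXM 1 high for Cox8b.

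The members did not all deviate alike within a library. Control 1 was the lowest of the 12 libraries for 12 members and the highest for 26. In the control group Cox5a had 121, 338 and 292 CPM and Sdha 139, 362 and 418 CPM, with control 1 far below the others. Atp5b, the catalytic subunit of ATP synthase, had 794, 1637 and 1722 CPM in these libraries. The order was turned for Cox5b, another nuclear subunit of complex IV, with 798, 395 and 282 CPM, for Ndufb7 with 335, 156 and 104 CPM and for Cox6b1 with 695, 383 and 270 CPM. These genes were picked after their values were seen, to show the range within 1 group.

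The deviations also varied with base composition and length. Across the 90 members, the Spearman correlation of a gene's deviation in a library with its GC content was 0.62 in DXM 1, 0.31 in control 1, -0.56 in Rhy 3 and -0.63 in DXM 2, beside 0.26, 0.24, -0.28 and -0.26 over 14574 protein-coding genes. With gene length it was -0.45 in DXM 1, -0.27 in control 1 and 0.39 in control 3, beside -0.06, -0.08 and 0.25 over the protein-coding genes. Genes in a library share its RNA and its depth, so these values describe the libraries. Between Rhy and model the 45 members shorter than the median of 1631 bases had a median log2 fold change of 0.30 and the 45 others 0.18, while protein-coding genes on either side of that length had 0.17 and -0.03. In a fit with offsets for GC content and length, added after the data were seen, the median of the members between Rhy and model was 0.17 in place of 0.25, 4 members had an unadjusted p under 0.05, and the log2 fold change of Atp5g1 was 1.30.

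The list of subunits encoded in mitochondrial DNA is set beside the nuclear ones. All 13 had a log2 fold change above 0 between Rhy and model (median 0.58), 12 of 13 between DXM and model (median 0.26) and 2 of 13 between model and control (median -0.42). Their libraries overlapped widely. Mitochondrially encoded genes took 13.4%, 13.98% and 11.1% of all counts in the model libraries, 23.8%, 15.2% and 8.90% in the Rhy libraries, 25.7%, 7.88% and 7.48% in the DXM libraries and 21.0%, 17.0% and 6.33% in the control libraries. This share is a property of each library, and Rhy 1, with the highest mean deviation of the nuclear members, also had the second highest share.

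Other lists of energy metabolism had medians nearer 0 in Rhy. Of 16 citric acid cycle genes, 13 were above model in Rhy (median 0.05) and 0 in DXM (median -0.20). Of 17 regulators of mitochondrial genes, 9 were above model in Rhy (median 0.01) and 6 in DXM (median -0.18). The glycolysis list had 14 of 17 tested gene rows above model in Rhy (median 0.07) and 3 in DXM (median -0.27). The assembly factors and carriers outside the rule had 22 of 40 above model in Rhy (median 0.04) and 13 in DXM (median -0.15).

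Markers of the cell types in the tissue were set beside the members. Of 10 colonocyte markers, 0 were above control in model (median -0.39), 8 were above model in Rhy (median 0.33) and 2 were above model in DXM (median -0.20). They summed to 23087 to 38787 CPM in control, 20600 to 27164 in model, 24094 to 30113 in Rhy and 14357 to 28314 CPM in DXM libraries. All 8 B cell markers (median -1.13) and all 8 T cell markers (median -0.63) were below model in Rhy. The B cell markers summed to 133 to 177 CPM in model libraries and to 1.63, 123 and 116 CPM in the Rhy libraries, and the T cell markers to 35.9 to 47.6 CPM and to 11.8, 30.9 and 32.9 CPM, so Rhy 1 was far below the other Rhy libraries in both. All 8 macrophage markers were above model in Rhy (median 0.35) and in DXM (median 1.15), with sums of 223 to 230 CPM in model, 77.7 to 433 in Rhy and 289 to 732 CPM in DXM libraries. The part of these cell types in the fold changes of the members was not tested.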

How the data were processed

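RNA-Seq of colonic tissue gave 12 libraries in 4 groups of 3, grouped by their labels. The authors deposited unnormalized read counts for each gene, as whole numbers. The deposited FPKM values were made from these counts by gene length and a scaled library size: all of 262985 values above 0 were recovered from the counts within 1%. The submitters' processing notes name mm10, HISAT2 2.0.5, featureCounts 1.5.0-p3 and DESeq2 1.16.1. Whether strand was used is not given in the sources used here, so overlapping and antisense genes, and genes with processed pseudogenes, are uncertain. The RNA-Seq methods name the control, model and Rhy groups only, and DXM was grouped by its label.

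Tests used edgeR 4.0.16 under R 4.3.3 (filterByExpr with a minimum count of 10, TMM, quasi-likelihood test, all 12 libraries in 1 fit, adjustment over 16904 genes). The standard error is the size of the log2 fold change divided by the square root of F. The fit was also run on simulated counts in which genes varied independently. Those counts lacked the deviations with base composition and length described above, so that run does not test the fit for these libraries. Groups of 3 against 3 cannot go below p = 0.1 in an exact permutation test. Columns of samples outside the list numbered 0. The alternatives were RLE and upper-quartile factors, fits of only the groups compared, any count, a replicate block, protein-coding genes, DESeq2 1.42.0, limma 3.58.1 on log2(FPKM + 1) and log2(FPKM + 0.1), and each library left out. Added after the data were seen were model 1 and model 2 as 1 library, a term for Hoxb13 under 5 CPM, and GC and length offsets. The members and lists were chosen with earlier results of these data known. The genes named are core catalytic subunits, second forms, the 5 members with the smallest unadjusted p under 0.05 in each comparison, and the highest and lowest of each complex in FPKM, and others are named as chosen after their values were seen or to illustrate a range. Replicate numbers were not used as pairs in the main fit, and the correlations given below do not settle whether they pair the samples. Values of 1 tested member are not reported here, and it stays in the counts and medians.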

Additional observations from a re-analysis of the deposited data

How the results depend on the processing

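The median log2 fold change of the members kept its sign in all 18 alternatives in Rhy and DXM against model and in Rhy against control, in 13 of 18 in model against control and in 16 of 18 in DXM against control. The number of genes with an adjusted p under 0.05, 0 in each comparison, was 46, 5, 53, 33 and 1058 with DESeq2, in the order model with control, the Rhy and the DXM group each with model, and then each with control, which the ranges below also follow. It was 1 in model against control, 1 in Rhy against control and 13 in DXM against control with any count, 1 in model against control and 2 in DXM against model with only the groups compared, and 2 in Rhy and 2 in DXM against model with limma on log2(FPKM + 0.1). With single libraries left out it was 0 to 1, 0 to 1, 0 to 0, 0 to 0 and 0 to 4.

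The number of members with an unadjusted p under 0.05 was, in model against control, 1 with upper-quartile factors, any count, DESeq2, model 1 and model 2 as 1 library, or GC and length offsets, and 2 with the Hoxb13 term. In Rhy against model it was 16 with only the groups compared, 8 with DESeq2 and 1 with model 1 and model 2 as 1 library. In DXM against model it was 4 with upper-quartile factors, any count or DESeq2, 10 with only the groups compared, and 1 with model 1 and model 2 as 1 library or the Hoxb13 term. In Rhy against control it was 3 with only the groups compared and 4 with GC and length offsets, and in DXM against control 10 with upper-quartile factors and 2 with only the groups compared. With single libraries left out it was 0 to 8, 1 to 10, 1 to 7, 4 to 27 and 2 to 15 in the 5 comparisons, and the median log2 fold change of the members was -0.21 to 0.15, 0.15 to 0.39, 0.03 to 0.21, 0.12 to 0.44 and -0.059 to 0.29. The share of all genes at an unadjusted p under 0.05 is not given for these fits. The cause of these moves was not tested.

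With the replicate block the members with an unadjusted p under 0.05 numbered 0, 3, 2, 9 and 5 and their median between Rhy and model was 0.23, and it changed no count of adjusted calls. The deviations of 18 same-numbered pairs correlated from -0.33 to 0.38, with 5 over 0.1. Of the 90 members, 85 had over 100 counts in every library, but Cox8b, Cox4i2 and Ndufa4l2 rest on few counts. Cox6b2 had 28 to 126 counts per library.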
